A study of Homo sapiens with 6 samples.

Results

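The genes of the DNA replication machinery were examined as a group of 50 genes, taken by gene name from a deposited expression table of 50868 rows. They comprise the origin recognition complex (ORC), the licensing factors CDC6, CDT1 and GMNN, the MCM2-7 helicase, the factors that activate it, the replicative polymerases with primase, the PCNA clamp with its RFC loader, the enzymes that finish Okazaki fragments, the RPA complex and the fork protection proteins. All 50 names were found, each in a single row, and all 50 passed the filter on low counts that left 14250 genes of the table for testing. The data are RNA sequencing of 6 libraries of KYSE-150, an established human oesophageal squamous carcinoma cell line. In 3 libraries the cells had been targeted at ZNF514, which encodes a zinc finger protein (siZNF514), and 3 libraries came from cells called nc, which the labels describe as wild type. The labels speak of a ZNF514 knockout by siZNF514, a name form usual for a small interfering RNA. The sources used here do not give the dose, the time after treatment or whether nc cells received a control RNA. Nothing in the labels ties the libraries to separate cultures, and p-values below therefore measure only the spread between these libraries, which may be technical.

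Replication starts in G1 phase, when ORC on an origin works with CDC6 and CDT1 to place the MCM2-7 helicase on the DNA in an inactive form, a step called licensing. GMNN (geminin) binds CDT1 and stops licensing after S phase has begun, which keeps an origin from firing again in the same cycle. In S phase, CDC45 and the GINS complex join the helicase and make it active, polymerases epsilon and delta copy the DNA held by the PCNA clamp, and RPA covers the single strands. Many of these genes are transcribed under E2F factors in late G1 phase, so their transcript levels are often read as a sign of proliferation in carcinoma cells.

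Library totals ranged from 13262363 to 14318909 counts in siZNF514 and from 12175259 to 13696180 counts in nc. Every member was well covered, with the lowest single count being 154 for GINS4 and the highest 10710 for MCM3. ZNF514 itself had 64, 82 and 63 counts in the siZNF514 libraries and 239, 273 and 261 in the nc libraries, and its level was 27.3% of that in nc (5.31 ± 0.871 and 19.4 ± 1.05 CPM, the count scaled to library size, SD, n = 3 each). All 9 epithelial markers checked had counts in every library, with a summed level of 4937 to 5834 CPM in siZNF514 and 4117 to 4473 CPM in nc. KRT8 (mean 2324 CPM in siZNF514 and 1554 in nc) and KRT18 (1495 and 878 CPM) had the highest levels. The sum is therefore not a level of squamous keratins. Within that list KRT8 (log2 fold change 0.58), KRT18 (0.77) and EPCAM (0.41) were higher, while KRT5 (-0.52), KRT14 (-1.23) and KRT6A (-2.16), keratins of squamous epithelium, were lower, and TP63, CDH1 and SFN did not pass; their part in the results was not tested. The siZNF514 replicate 3 library stood apart. The 5 fibroblast markers checked summed to 232 counts there, with none at 0, against 7 and 6 counts in siZNF514 replicates 1 and 2 and 23 to 45 counts in nc. COL1A2, COL3A1 and DCN were at 0 in siZNF514 replicates 1 and 2. The part of those reads in the results was not tested, and the member counts are given below also without that library. The 4 endothelial markers summed to at most 45 counts in any library, and of the 5 leukocyte markers CD68 alone was above 13 counts. In siZNF514 replicate 3 none of these markers was at 0, while every other library had some at 0 in both lists. That library had counts for 20216 genes, against 19384 and 19547 in siZNF514 replicates 1 and 2 and 20842 to 21076 in nc.

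Of the 50 replication genes, 12 were higher and 14 lower in siZNF514 than in nc at an adjusted p under 0.05 (edgeR quasi-likelihood F test, Benjamini-Hochberg adjustment over all 14250 genes), and 24 did not pass. The 26 called genes are 52.0% of the members, beside 50.6% of all tested genes called in either direction, 25.5% higher and 25.1% lower. Past adjusted p 0.05 and with a change of at least 1.5-fold were 5 members (10.0%), beside 23.0% of all tested genes, which were not matched to the members for count. CDC6, PCNA and CLSPN were lower, beside 14.3% of all tested genes, and TICRR and POLE4 were higher, beside 8.73%. The median log2 fold change was 0.00 over the members and -0.01 over all tested genes, and the CPM values of siZNF514 and nc did not overlap for 33 members, 15 higher and 18 lower, beside 60.3% of all tested genes (30.0% higher and 30.3% lower). The replication genes did not move in 1 direction as a group. In these bulk libraries a changed share of cells in S phase and changed RNA per cell cannot be told apart for any gene.

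Without siZNF514 replicate 3, 12 members were higher and 13 lower, of which 11 and 12 had the same call with all libraries. These are 24.0% and 26.0% of the members, beside 3313 higher and 3193 lower of the 14568 genes tested in that fit. The split between directions depended on library scaling: with total counts alone in place of TMM factors, 8 members were higher (16.0%) and 22 lower (44.0%), beside 17.5% and 33.5% of all tested genes, and the median of all genes shifted by -0.127 on the log2 scale. All 14 lower and 8 of the 12 higher members kept their call under that scaling.

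**Figure D1:**
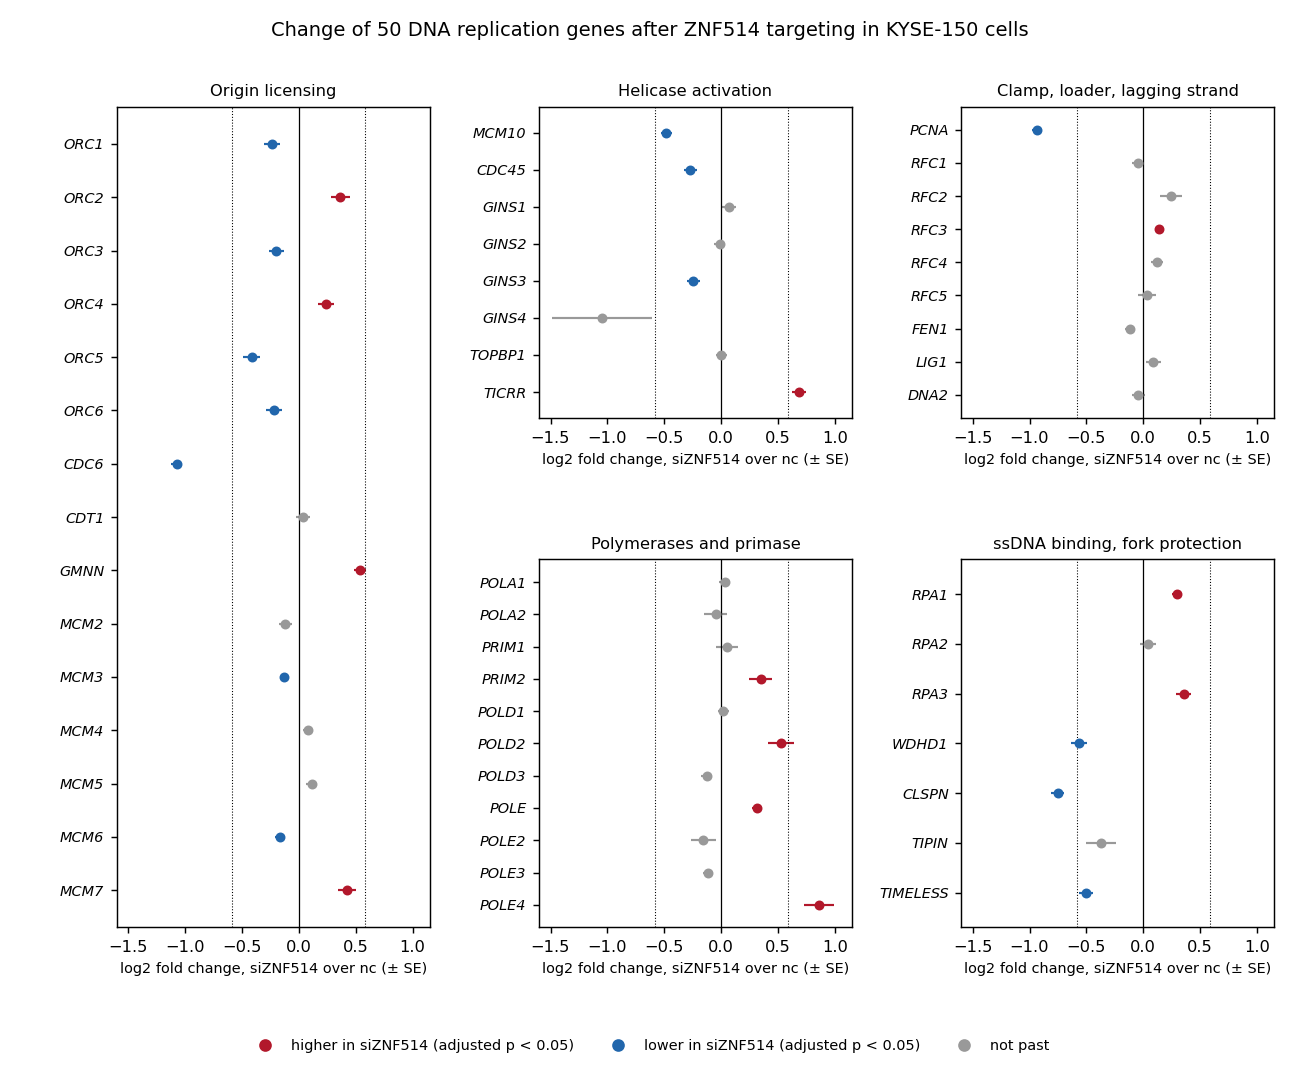
Log2 fold change of siZNF514 over nc (x axis, bars are ± SE) for each of the 50 replication genes (y axis), in panels by role, with red for higher, blue for lower and grey for not past adjusted p 0.05 in the edgeR test. Dotted lines mark a change of 1.5-fold, which CDC6, PCNA and CLSPN pass to the left and TICRR and POLE4 to the right; GINS4 (grey) also lies left of that line, with the widest SE, and is not past the adjusted p.

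The 5 members past 1.5-fold come from different steps of replication. On hg38, in the deposited table, CDC6 lies at chr17:40287633-40304657 on the + strand, PCNA at chr20:5114953-5126626 on the − strand, CLSPN at chr1:35720218-35769967 on the − strand, TICRR at chr15:89575482-89631056 on the + strand and POLE4 at chr2:74958492-74970128 on the + strand. Promoter windows of 250 bases upstream of the RefSeq start (GRCh38.p14) were found for 43 of the 50 members. The windows of CLSPN, PCNA and TICRR are shown because these genes changed in opposite directions while their windows all carry the CCAAT motif. The capitals mark CCAAT, the core of the site of the factor NF-Y, or its reverse complement ATTGG, and a short form of the E2F site. The E2F site was taken as TTTCCCGC, TTTCGCGC, TTTGCCGC or TTTGGCGC on either strand, and its short form as the same letters without the last base. The CLSPN window is chr1:35769979-35770228 on the − strand, the PCNA window chr20:5126623-5126872 on the − strand and the TICRR window chr15:89575219-89575468 on the + strand.
CLSPN promoter: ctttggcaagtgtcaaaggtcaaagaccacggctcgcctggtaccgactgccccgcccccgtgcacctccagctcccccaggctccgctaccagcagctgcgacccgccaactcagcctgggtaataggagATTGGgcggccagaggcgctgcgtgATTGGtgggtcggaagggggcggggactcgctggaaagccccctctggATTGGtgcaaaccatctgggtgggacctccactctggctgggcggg
PCNA promoter: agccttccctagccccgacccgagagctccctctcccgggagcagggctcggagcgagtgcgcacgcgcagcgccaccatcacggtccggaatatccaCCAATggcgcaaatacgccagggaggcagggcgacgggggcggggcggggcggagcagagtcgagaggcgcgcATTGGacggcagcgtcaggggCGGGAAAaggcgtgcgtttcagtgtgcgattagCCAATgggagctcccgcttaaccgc
TICRR promoter: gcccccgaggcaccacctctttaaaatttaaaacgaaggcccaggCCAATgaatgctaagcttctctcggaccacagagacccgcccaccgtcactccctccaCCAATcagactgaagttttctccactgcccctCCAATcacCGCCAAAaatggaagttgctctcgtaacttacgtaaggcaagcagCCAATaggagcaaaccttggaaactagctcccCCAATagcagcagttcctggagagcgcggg

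Several CCAAT matches in either orientation stood in all of these windows, 3 in CLSPN, 3 in PCNA and 5 in TICRR. The short E2F form was found in PCNA with its first base 58 bases upstream of the start and in TICRR 107 bases upstream, and it was not found in the CLSPN window. The windows of CDC6 and POLE4 overlap annotated exons of other transcripts and are not printed; each held both motifs. Across the 43 members, 24 windows (55.8%) held CCAAT on either strand, beside 32.0% of the 35116 promoter windows of that length, and 17 (39.5%) held the short E2F form, beside 7.33%. The full E2F site, which contains the short form, was in 13 windows (30.2%), beside 2.79% of all windows. These shares count every member window found, those of CDC6 and POLE4 included. Some windows lie inside the gene as deposited, 97391 bases from its start for GINS3 and 3115 for RFC5. The short E2F form was held by 5 of 11 higher members, 5 of 14 lower members and 7 of 18 members that did not pass. CCAAT was held by 7 of 11 higher, 10 of 14 lower and 7 of 18 members that did not pass. TTTGAA, the core of the CHR element of genes expressed late in the cell cycle, was in 0 of 43 member windows, beside 13.3% of all windows. A match describes these letters in this window and is not evidence of binding.

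Origin licensing, the role with the most members, had 4 of 15 genes higher, 7 lower and 4 not past (73.3% called, beside 50.6% of all tested genes), and a median log2 fold change of -0.12. Without siZNF514 replicate 3 only 3 were higher and 5 lower, beside 3313 and 3193 of 14568 tested genes. With total counts alone 2 were higher (13.3%) and 8 lower (53.3%), beside 17.5% and 33.5% of all tested genes. CDC6, the ATPase that joins ORC to load the helicase, had the largest decrease of any member. It was at 81.8, 81.6 and 85.8 CPM in siZNF514 and at 175, 181 and 169 CPM in nc. The siZNF514 libraries lay close together at 47.5% of the nc mean, with no overlap between groups. The log2 fold change of CDC6 was -1.07 (SE 0.05, adjusted p = 9.88e-06, edgeR).

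CDT1, the other loading factor, had 95.3, 94.5 and 106.0 CPM in siZNF514 and 95.2, 98.8 and 94.6 CPM in nc, so the groups overlapped (log2 fold change 0.04, SE 0.06, edgeR adjusted p = 0.639). GMNN, the inhibitor of CDT1, had 144, 131 and 136 CPM in siZNF514 and 93.5, 92.7 and 97.0 CPM in nc. Every siZNF514 library was above every nc library, and the log2 fold change of GMNN was 0.53 (SE 0.05, adjusted p = 0.00018, edgeR). The ratio of CDT1 to GMNN within a library needs no scaling between libraries. Its log2 value was -0.59, -0.47 and -0.36 in siZNF514 and 0.03, 0.09 and -0.04 in nc. The log2 ratio was 0.50 lower in siZNF514 (two-sided exact permutation p = 0.1, the smallest that 3 against 3 libraries allow). The deposited FPKM divide the count by a length per gene and the library total. That length can exceed the locus, as for MCM7 (9817 bases), so it is not a transcript length. An order of genes by FPKM therefore need not be their order by transcript number. By FPKM, GMNN stood above CDT1 and CDT1 above CDC6 in siZNF514 (31.98 ± 1.68, 24.7 ± 1.55 and 12.6 ± 0.338 FPKM, SD, n = 3). In nc the order was CDC6, CDT1 and GMNN (28.9 ± 1.01, 26.3 ± 0.595 and 24.1 ± 0.552 FPKM, SD, n = 3).

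**Figure D2:**
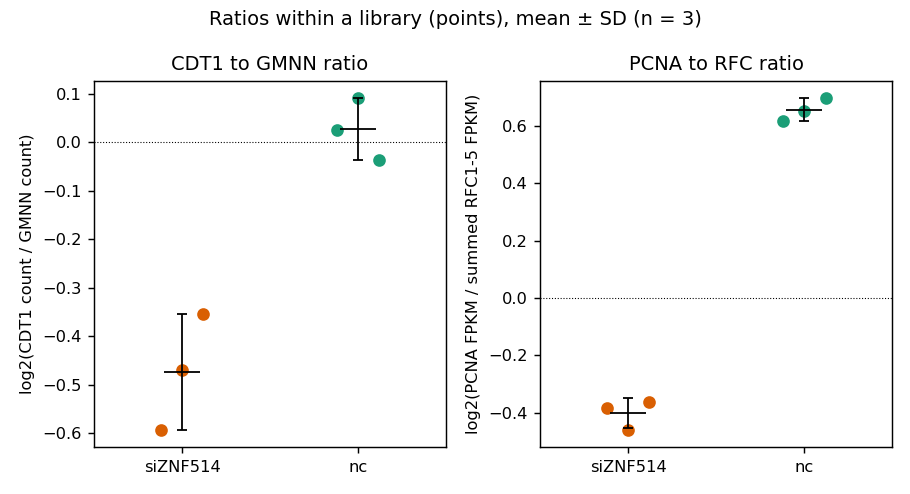
Log2 ratio of CDT1 to GMNN counts (left) and of PCNA FPKM to the summed FPKM of RFC1 to RFC5 (right) in each library (points), with mean ± SD (n = 3), for siZNF514 and nc. In both panels all 3 siZNF514 libraries are below all 3 nc libraries.

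The 6 ORC subunits, which together bind origins, passed the test with small changes in both directions, beside 50.6% of all tested genes called. ORC1, the ATPase subunit, had 47.2, 44.4 and 44.6 CPM in siZNF514 and 48.9, 55.1 and 56.1 CPM in nc. The nearest libraries of the groups were close to each other, and the log2 fold change was -0.23 (SE 0.07, edgeR adjusted p = 0.0279). ORC5 had 35.2, 37.7 and 35.2 CPM in siZNF514 and 52.2, 45.3 and 46.6 CPM in nc, a log2 fold change of -0.41 (SE 0.07, edgeR adjusted p = 0.00324), and was the most changed subunit. ORC3 (-0.20) and ORC6 (-0.22) were also lower, while ORC2 (0.36) and ORC4 (0.24) were higher. ORC5 alone kept its call under every alternative tried. Calls were lost for ORC1 without siZNF514 replicate 2 or 3 or nc replicate 2 or 3, for ORC3 when any library but siZNF514 replicate 2 was left out, for ORC4 without siZNF514 replicate 2 or 3 or nc replicate 1 or 3, and for ORC6 without siZNF514 replicate 1 or 2 or nc replicate 1 or 3. With total counts alone ORC2 and ORC4 did not pass, and the 4 lower subunits did. ORC1, ORC3 and ORC6 did not pass with the DESeq2 test, with no filter or with the replicate number as a block. ORC4 lay across 2 genes on the opposite strand, MBD5 and ACVR2A, whose counts were 15.5% and 14.6% of its own, and strand use in counting is not given.

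The MCM2-7 subunits, which form a ring with 1 copy of each protein, did not change alike. MCM7 had 583, 495 and 522 CPM in siZNF514 and 374, 441 and 379 CPM in nc, and every siZNF514 library was above every nc library (log2 fold change 0.42, SE 0.08, edgeR adjusted p = 0.00477). MCM3 and MCM6 were slightly lower (log2 fold change -0.13 with adjusted p = 0.0116 and -0.17 with adjusted p = 0.00913, edgeR). MCM2 (-0.12), MCM4 (0.08) and MCM5 (0.11) did not pass; MCM5 passed without siZNF514 replicate 1 (adjusted p = 0.0464). Summed over the 6 subunits, the deposited level was 312, 304 and 310.1 FPKM in siZNF514 and 339, 346 and 335 FPKM in nc, a log2 difference of -0.14 (two-sided exact permutation p = 0.1, the smallest possible). The sign of that sum depended on the unit. TMM-scaled CPM summed to 2358, 2308 and 2346 in siZNF514 and to 2246, 2333 and 2239 in nc, where the groups overlapped. These CPM differ from FPKM both in library scaling and in having no length per gene, and the parts of the 2 were not separated. MCM3 had the highest FPKM of the subunits in siZNF514 and in nc (120.0 ± 1.03 and 143.7 ± 4.88 FPKM, SD, n = 3 each), and MCM5 the lowest (22.4 ± 0.744 and 22.6 ± 0.809 FPKM). Between them the order differed: MCM7 came next to MCM3 in siZNF514 and MCM6 did in nc. The deposited levels of MCM2, MCM4 and MCM6 lay between 32.7 and 52.3 FPKM in all 6 libraries.

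**Figure D3:**
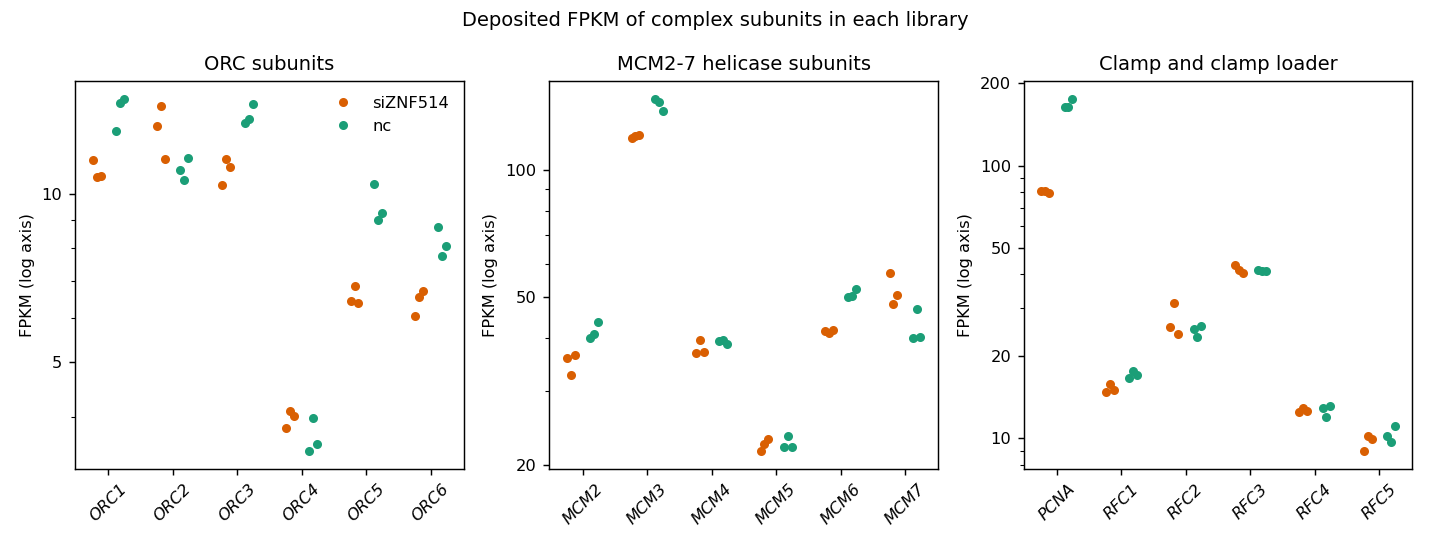
Deposited FPKM (log axis) of the ORC subunits, the MCM2-7 subunits, and PCNA with the RFC subunits in each siZNF514 (orange) and nc (green) library. PCNA in siZNF514 lies apart from its nc values, while most RFC subunits lie on top of each other; the FPKM values carry no correction for library composition.

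Helicase activation had 1 of 8 genes higher, 3 lower and 4 not past, with a median log2 fold change of -0.13. So 4 of the 8 were called, beside 50.6% of all tested genes (25.5% higher and 25.1% lower). TICRR, which with TOPBP1 brings CDC45 to the loaded helicase, had 60.4, 62.4 and 64.9 CPM in siZNF514 and 40.7, 37.4 and 38.5 CPM in nc. Its siZNF514 libraries were all above its nc libraries, at 161% of the nc mean (log2 fold change 0.69, SE 0.06, edgeR adjusted p = 0.000125). MCM10, which acts when the helicase starts to unwind, had 73.7, 71.2 and 67.9 CPM in siZNF514 and 100.3, 98.7 and 98.2 CPM in nc. It was lower in every siZNF514 library (log2 fold change -0.48, SE 0.05, edgeR adjusted p = 0.000245).

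CDC45, a subunit of the active helicase, had 45.4, 45.6 and 45.1 CPM in siZNF514 and 54.3, 57.5 and 52.2 CPM in nc (log2 fold change -0.27, SE 0.06, edgeR adjusted p = 0.00698). GINS3, a subunit of the GINS complex, had 42.5, 42.7 and 41.5 CPM in siZNF514 and 51.2, 51.7 and 47.1 CPM in nc (log2 fold change -0.24, SE 0.06, edgeR adjusted p = 0.0128). For both genes the groups did not overlap. GINS1 (0.07), GINS2 (-0.01) and TOPBP1 (0.00) did not pass, with overlapping groups, and GINS2 overlaps GSE1 on the opposite strand, with counts 60.4% of its own. GINS4 did not pass either, with 296, 383 and 154 counts in siZNF514 and 675, 310 and 733 in nc. Its estimate was large and uncertain (log2 fold change -1.05, SE 0.44, edgeR adjusted p = 0.0839), and nc replicate 2 lay inside the range of siZNF514. Without nc replicate 2 the log2 fold change was -1.37 (adjusted p = 0.0206). Its coefficient of variation was 43.2% in siZNF514 and 44.2% in nc, against at most 15.3% and 17.6% for any other member.

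**Figure D4:**
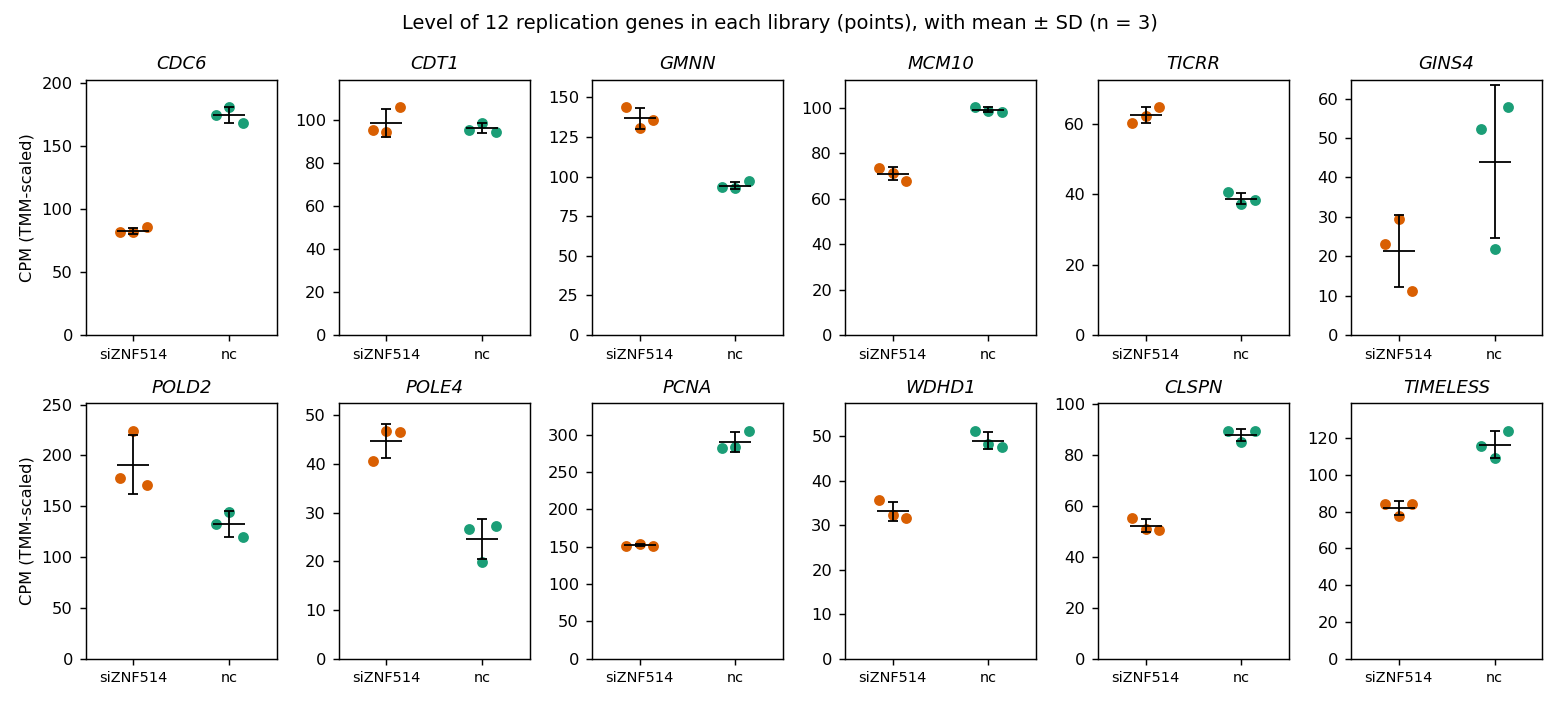
TMM-scaled CPM (y axis, from 0) of 12 replication genes in each library (points), with mean ± SD (n = 3), siZNF514 left and nc right. CDC6, MCM10, PCNA, WDHD1, CLSPN and TIMELESS are lower and GMNN, TICRR, POLD2 and POLE4 higher in every siZNF514 library, while CDT1 and GINS4 overlap between groups.

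Among polymerases and primase, 4 of 11 genes were higher, 0 lower and 7 not past, with a median log2 fold change of 0.03. This is 36.4% called, beside 50.6% of all tested genes (25.5% higher and 25.1% lower). With total counts alone 3 were higher and 2, POLD3 and POLE3, were lower, beside 17.5% and 33.5% of all tested genes. POLE4, a small histone-fold subunit of polymerase epsilon, had 40.6, 46.8 and 46.7 CPM in siZNF514 and 26.7, 19.9 and 27.2 CPM in nc. The siZNF514 libraries stood at 182% of the nc mean without overlap (log2 fold change 0.86, SE 0.13, edgeR adjusted p = 0.00144). POLE, the catalytic subunit that copies the leading strand, had 134, 130 and 134 CPM in siZNF514 and 105, 110.3 and 106 CPM in nc, a smaller increase (log2 fold change 0.31, SE 0.04, edgeR adjusted p = 0.000969). POLE2 (-0.16) and POLE3 (-0.11, adjusted p = 0.0565) did not pass; POLE3 was lower without siZNF514 replicate 3 (adjusted p = 0.0426).

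POLD2, an accessory subunit of polymerase delta, had 178, 224 and 171 CPM in siZNF514 and 133, 145 and 120 CPM in nc, and the spread within groups was wide beside that of POLE (log2 fold change 0.53, SE 0.12, edgeR adjusted p = 0.00805). The catalytic subunit POLD1 (0.02) and the accessory subunit POLD3 (-0.13, adjusted p = 0.0748, edgeR) did not pass. PRIM2, the large subunit of primase, had 101, 100.2 and 80.3 CPM in siZNF514 and 72.0, 69.7 and 79.4 CPM in nc. Replicate 3 of siZNF514 and replicate 3 of nc lay within 1 CPM of each other, and the call (log2 fold change 0.35, SE 0.10, edgeR adjusted p = 0.0236) was lost without siZNF514 replicate 1 or 2 or nc replicate 1 or 2. PRIM1 (0.05), the catalytic primase subunit, and the polymerase alpha subunits POLA1 (0.03) and POLA2 (-0.05) did not pass. PRIM1 shares its locus with NACA on the same strand, whose counts were 622% of its own, so its value is uncertain.

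PCNA, the sliding clamp that holds the polymerases, had 151, 154 and 151 CPM in siZNF514 and 282, 284 and 305 CPM in nc. The siZNF514 libraries were within 3 CPM of each other and at 52.3% of the nc mean (log2 fold change -0.93, SE 0.04, edgeR adjusted p = 1.26e-05). None of the 5 subunits of RFC, the loader that opens PCNA, was lower with TMM scaling, while RFC1 was lower with total counts alone. RFC3 had 158, 152 and 149 CPM in siZNF514 and 139, 138 and 139 CPM in nc, a small increase (log2 fold change 0.14, SE 0.04, edgeR adjusted p = 0.0257) that lost its call when any library but siZNF514 replicate 3 was left out, and with total counts alone (0.01). RFC2 had 149, 184 and 143 CPM in siZNF514 and 135, 127 and 139 CPM in nc and did not pass (log2 fold change 0.25, SE 0.10, edgeR adjusted p = 0.0719), though it did without siZNF514 replicate 3 (adjusted p = 0.0361). RFC1 (-0.05), RFC4 (0.12) and RFC5 (0.03) did not pass, and RFC4 and RFC5 overlap EIF4A2 and WSB2 on the opposite strand, with counts 495% and 103% of their own.

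The log2 ratio of PCNA to summed RFC FPKM was -0.38, -0.46 and -0.36 in siZNF514 and 0.62, 0.65 and 0.70 in nc. The ratio was lower by 1.06 on the log2 scale in siZNF514 (two-sided exact permutation p = 0.1, the smallest possible). In FPKM, PCNA was below the RFC sum in siZNF514 and above it in nc. Which side of the sum it lies on depends on the lengths per gene used for FPKM, which were 1808 bases for PCNA and 9332 for RFC1. PCNA stood at 80.3 ± 0.718 FPKM in siZNF514 and 167.6 ± 7.17 FPKM in nc, and the highest RFC subunit, RFC3, at 41.6 ± 1.37 and 41.2 ± 0.234 FPKM (SD, n = 3 each). FEN1, the nuclease that removes Okazaki flaps, had 195, 199 and 192 CPM in siZNF514 and 206, 210.3 and 221 CPM in nc. The groups did not overlap, but FEN1 did not pass (log2 fold change -0.12, SE 0.04, edgeR adjusted p = 0.051). LIG1 (0.09), the ligase that joins the fragments, and DNA2 (-0.04), a nuclease and helicase, did not pass. FEN1 overlaps TMEM258 on the opposite strand, with counts 24.3% of its own.

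Single-strand binding and fork protection divided by complex. Of the 3 RPA subunits, which cover single-stranded DNA, 2 were higher and 0 lower, beside 25.5% and 25.1% of all tested genes. RPA1, the large subunit, had 347, 341 and 342 CPM in siZNF514 and 271, 297 and 272 CPM in nc, without overlap (log2 fold change 0.30, SE 0.05, edgeR adjusted p = 0.00147). RPA3, the small subunit, was higher by 0.35 on the log2 scale (SE 0.06, edgeR adjusted p = 0.00296) and RPA2 did not pass (0.04). RPA3 overlaps UMAD1 on the opposite strand, with counts 40.1% of its own, and RPA1 likewise overlaps SMYD4.

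Of the 4 fork protection genes 3 were lower and 0 higher, beside 25.1% of all tested genes lower and 25.5% higher, and their median log2 fold change was -0.53. CLSPN (claspin), which links the checkpoint kinase ATR to CHEK1 and travels with the fork, had 55.2, 51.1 and 50.7 CPM in siZNF514 and 89.4, 85.3 and 89.6 CPM in nc. The siZNF514 libraries stood at 59.4% of the nc mean (log2 fold change -0.75, SE 0.06, edgeR adjusted p = 6.39e-05). TIMELESS, which binds TIPIN at the fork, had 84.1, 77.4 and 84.4 CPM in siZNF514 and 116, 109 and 124 CPM in nc (log2 fold change -0.50, SE 0.06, edgeR adjusted p = 0.000633). WDHD1, which ties polymerase alpha to the helicase, had 35.6, 32.2 and 31.7 CPM in siZNF514 and 51.2, 48.3 and 47.5 CPM in nc (log2 fold change -0.56, SE 0.07, edgeR adjusted p = 0.000599). For these genes every siZNF514 library was below every nc library. TIPIN had 31.3, 37.2 and 35.3 CPM in siZNF514 and 53.3, 43.3 and 37.7 CPM in nc and did not pass (log2 fold change -0.37, SE 0.13, edgeR adjusted p = 0.0521); without nc replicate 3 it did (-0.48, adjusted p = 0.0202). With total counts alone all 4 were lower, beside 33.5% of all tested genes.

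The role groups differed in their counts, though differences between groups of genes were not tested. The 21 members that passed under 1.5-fold had log2 fold changes of -0.56 to 0.53, and the 24 that did not pass had -0.37 to 0.25 apart from GINS4. The median size of the log2 fold change was 0.21 over the members, beside 0.35 over all tested genes. The 2 sets were not matched for count. No member fell below 154 counts in any library, while the filter kept genes from a minimum count of 10. The median coefficient of variation of a member between libraries was 4.15% in siZNF514 and 4.41% in nc.

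Beyond the 50 members, 48 further genes of replication were examined, in 49 rows because ATRIP stands under 2 identifiers. Of these rows 14 were higher, 14 lower and 21 not past, so 57.1% were called, beside 50.6% of all tested genes (28.6% higher and 28.6% lower, beside 25.5% and 25.1%). CDC7, the kinase that fires licensed origins by acting on MCM proteins, had 71.2, 59.7 and 68.2 CPM in siZNF514 and 85.2, 77.8 and 78.1 CPM in nc (log2 fold change -0.28, SE 0.08, edgeR adjusted p = 0.0222), and the call was lost without siZNF514 replicate 2 or nc replicate 1. Its activator DBF4 had 24.6, 26.8 and 20.7 CPM in siZNF514 and 26.2, 23.1 and 23.6 CPM in nc, overlapping levels, and did not pass (-0.01).

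Among 8 genes of chromatin assembly behind the fork, 5 were lower and 1 higher, beside 25.1% of all tested genes lower and 25.5% higher. ASF1B, a histone chaperone, had 37.1, 37.0 and 38.3 CPM in siZNF514 and 100.5, 102 and 100.2 CPM in nc. Its level was 37.1% of that in nc, with a log2 fold change of -1.43 (SE 0.05, edgeR adjusted p = 4.6e-06), the smallest p among these genes. SSRP1, a subunit of the FACT histone chaperone, had 389, 408 and 398 CPM in siZNF514 and 563, 568 and 556 CPM in nc (log2 fold change -0.50, SE 0.03, edgeR adjusted p = 3.57e-05). Of the 6 genes that act in the turnover of CDT1 and CDC6, 4 were higher and 0 lower with TMM scaling, beside 25.5% and 25.1% of all tested genes. Under total counts alone 2 were higher and 1 lower, beside 17.5% and 33.5% of all tested genes. SKP2, which recognises proteins for ubiquitin tagging, CDT1 among them, had 83.5, 87.6 and 80.1 CPM in siZNF514 and 57.0, 53.7 and 52.0 CPM in nc (log2 fold change 0.63, SE 0.06, edgeR adjusted p = 0.000186). DDB1, the adaptor of the CUL4 ubiquitin ligases, was higher by 0.39 on the log2 scale (SE 0.05, edgeR adjusted p = 0.00043).

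All 3 topoisomerases listed, which relieve the twist ahead of and behind the fork, were higher, beside 25.5% of all tested genes. TOP1 had 389, 401 and 369 CPM in siZNF514 and 241, 239 and 255 CPM in nc (log2 fold change 0.66, SE 0.05, edgeR adjusted p = 5.17e-05). TOP2A had 628, 612 and 591 CPM in siZNF514 and 463, 454 and 449 CPM in nc (log2 fold change 0.42, SE 0.03, edgeR adjusted p = 8.61e-05). For both genes every siZNF514 library was above every nc library. Of 7 genes of MCM accessory factors and helicase unloading, 1 was higher and 3 lower, beside 25.5% and 25.1% of all tested genes. MCM9, a relative of the MCM2-7 proteins that acts in repair, had 11.8, 10.6 and 11.7 CPM in siZNF514 and 23.8, 23.4 and 25.3 CPM in nc (log2 fold change -1.09, SE 0.09, edgeR adjusted p = 9.04e-05). ASF1A lies inside the MCM9 locus on the opposite strand. It had 296, 337 and 310 counts in siZNF514, against 150, 138 and 159 for MCM9, and strand use in counting is not given. FAF1, a cofactor of the unloading ATPase p97, was higher by 0.37 (SE 0.04, edgeR adjusted p = 0.000426). The fork checkpoint genes had 2 of 8 rows higher and 2 lower, and the other clamp loaders and PCNA partners 2 of 10 higher and 3 lower. The kinase and firing genes had 1 of 7 higher and 1 lower. Beside these counts, 25.5% of all tested genes were higher and 25.1% lower.

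**Figure D5:**
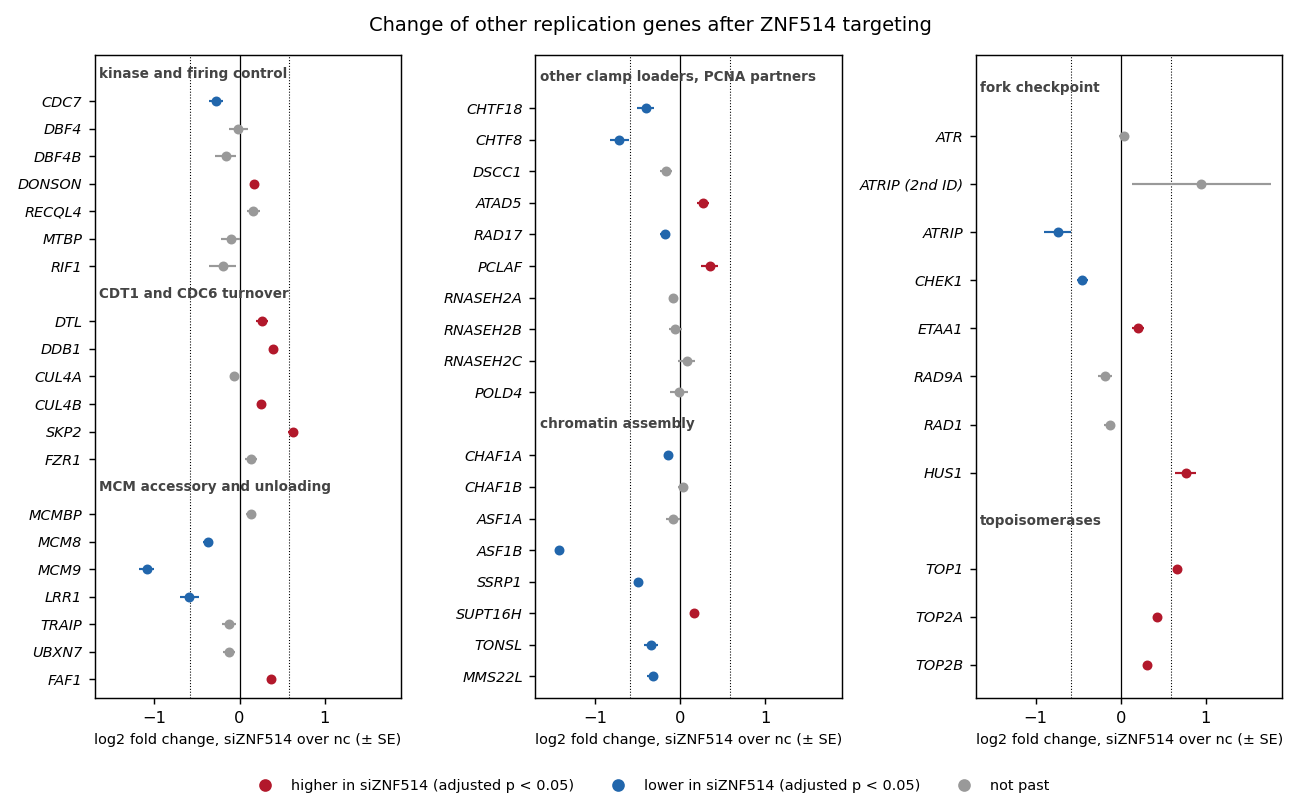
Log2 fold change of siZNF514 over nc (x axis, bars are ± SE) for the other replication genes (y axis) grouped by role, coloured as higher, lower or not past adjusted p 0.05 in the edgeR test, with dotted lines at 1.5-fold. ASF1B and MCM9 lie farthest to the left, all 3 topoisomerases lie to the right of 0, and the second ATRIP identifier has the widest SE.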

How the data were processed

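RNA of 6 libraries of KYSE-150 cells, 3 siZNF514 and 3 nc, was extracted with TRIzol and made into libraries with a VAHTS kit, per the labels' protocols. The tools listed in the submitters' processing notes are HISAT2 2.0.4, StringTie 1.3.3b and edgeR, with hg38 as build, and no role is stated for any. Neither annotation release nor strand setting is given there. The deposited count columns held whole numbers per gene, not normalized. The FPKM columns deposited by the authors were proportional to the count divided by a length per gene and the library total.

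Columns were matched to libraries by title. Counts were filtered with filterByExpr (minimum count 10, minimum total 15), scaled by TMM factors and tested with the edgeR 4.0.16 quasi-likelihood F test (R 4.3.3), siZNF514 over nc, 4 residual degrees of freedom, with Benjamini-Hochberg adjustment over 14250 genes at 0.05. The SE is the log2 fold change divided by the square root of F. CPM are TMM-scaled. Ratios and sums were compared by exact permutation tests (SciPy 1.17.1). The script was tested on simulated data. Alternatives used DESeq2 1.42.0 and limma 3.58.1 on log2(FPKM + 0.1), and are listed in the closing section. Pairs of libraries within a group differed by more than sampling noise (chi-square per degree of freedom 7.43 to 9.69).

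The 50 members, the 48 other genes and the marker lists were chosen with earlier results of these data known. Values per library were given for CDC6, CDT1, GMNN, ORC1 and PCNA, for members past 1.5-fold, and for the 4 members with the smallest p in each role. Of the other genes, CDC7, DBF4 and the 8 with the smallest p were named. GINS4 and TIPIN counts, and the genes named as losing or gaining a call, were chosen after their values were seen. Reads of overlapping genes could not be told apart; 21 members overlap another gene with counts, 11 of them with over 10% of their own count. Overlaps of the 48 other genes were not counted. Promoter windows came from RefSeq, GRCh38.p14.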

Additional observations from a re-analysis of the deposited data

How the results depend on the processing

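Of the 26 called members, 19 kept their call and direction under all 16 alternatives and 0 reversed; ORC1, ORC2, ORC3, ORC4, ORC6, PRIM2 and RFC3 lost it under at least 1. CDC6, PCNA, CLSPN, TICRR and POLE4 kept theirs under all 16, with log2 fold changes of -1.20 to -1.05, -1.06 to -0.89, -0.88 to -0.72, 0.46 to 0.72 and 0.68 to 0.94. Scaling moved the counts most: with total counts alone and in the 4 limma-trend fits on FPKM (pseudocounts 0.1, 1 and 0.01, and a mean FPKM of at least 0.5), 8 members were higher and 22 lower, and 7 of the other replication genes were higher; of all genes, 2493 were higher and 4775 lower with total counts alone, and 2477 to 2534 and 4122 to 4686 in the FPKM fits. In the 4 FPKM fits 22 of the other genes were lower, with total counts alone 21. Total counts and FPKM carry no composition factor. The summed MCM2-7 level reversed to a log2 difference of 0.0405 as TMM-scaled CPM, which also have no length per gene (exact permutation p = 0.2). Leaving out each library in turn gave 9 to 12 higher and 12 to 13 lower members, and log2 differences of -0.56 to -0.44 for CDT1 to GMNN, -1.08 to -1.03 for PCNA to RFC and -0.15 to -0.13 for summed MCM2-7. In those fits 3197 to 3338 of all genes were higher and 3104 to 3225 lower, of 14437 to 14696 tested. DESeq2 size factors in edgeR gave 12 and 14, no filter and the DESeq2 test each 12 and 11, and a mean count of at least 50 gave 11 and 18. Of all genes, DESeq2 size factors gave 3634 higher and 3575 lower of 14250, and no filter 3541 and 3411 of 25995. The DESeq2 test gave 3361 and 3140 of 17410, and a mean count of at least 50 gave 3187 and 3161 of 11609. Same-numbered libraries did not deviate together (correlations 0.00749, 0.0413 and -0.0358, beside -0.0628 to 0.0531 for differently numbered ones). These values show no shared effect of the number, but cannot tell whether libraries were prepared in pairs. With the replicate number as a block, 10 members were higher and 11 lower, and 3356 and 3284 of all genes; the paired CDT1 to GMNN difference was -0.50. The 14 uncalled members whose estimate changed sign had a log2 fold change of at most 0.12 in size. With 3 libraries a group, exact tests of single values cannot go below p = 0.1.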
